A study of Mus musculus with 217 samples.

Results

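The DNA mismatch repair genes Msh3, Msh6, Mlh3, Pms1 and Pms2, together with the nuclease gene Fan1 and the DNA ligase gene Lig1, were followed through striatum and cortex of the LacQ140 Huntington's disease (HD) mouse. These 7 genes were picked by name out of the 54532 gene identifiers measured, with no cut on their values. LacQ140 mice were Hdh(LacO-140Q/+):beta-actin-LacIR tg, with 1 expanded Hdh allele behind Lac operators and a transgene whose promoter drives the Lac repressor throughout the body. WT mice were Hdh(LacO-+/+):beta-actin-LacIR tg, so that every group carried the repressor, and all mice were C57BL/6. IPTG, given from embryonic day 5 where it was given, lifts the repressor from the operators. LacQ140 mice received it throughout and so expressed mutant Htt (mHtt), LacQ140_A mice never received it, and in LacQ140_2M and LacQ140_8M mice it was stopped at 2 or 8 months of age. The paper describes the lowering of mHtt without IPTG as moderate, so mHtt was reduced rather than absent. WT mice were kept without IPTG (WT) or with it (WT + IPTG). RNA-Seq covered 217 libraries at 6 and 12 months of age, 10 mice per group with both sexes, or 9 in the 12-month striatum of WT, LacQ140 and LacQ140_8M mice; LacQ140_8M was sampled at 12 months. Of 110 mice, 107 gave both tissues.

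Mismatch repair proteins work in complexes. Of the MutS proteins, MSH6 serves to find single mismatches and MSH3 to find loops of extra bases, and the MutL proteins PMS2, PMS1 and MLH3 act after them. In mouse models of HD the MSH3 complex and the MLH3 endonuclease are known for driving growth of the CAG repeat in striatal neurons, whereas the FAN1 nuclease holds it back, and human association studies of HD onset have pointed to several of these genes. LIG1 seals the nick that remains after resynthesis.

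Values are CPM, a gene's share of its library's counts after scaling by TMM factors; a difference is a log2 ratio from edgeR's quasi-likelihood test, and a gene was called at an adjusted p under 0.05 (Benjamini-Hochberg, over all genes tested) with a change of at least 20%. Each library held between 33292057 and 68038831 counts, and all 7 genes were above 0 in every library. The tissue labels were checked on 7 markers of striatal spiny neurons (median summed level 5195 CPM in the 6-month striatum and 274.6 CPM in the 6-month cortex) and 6 of cortical excitatory neurons (12.63 against 1291 CPM); none of these markers had a median of 0. The 6- and 12-month libraries were deposited apart as batches that follow age, so the ages cannot be told apart from the batch and their values are only set side by side. The 12-month cortex libraries stood apart from all others in how level followed transcript length: the slope of log2 CPM on log2 length had a median of -0.234 over 60 libraries, against 0.367 in the 6-month cortex, 0.385 in the 6-month striatum and 0.626 in the 12-month striatum. Libraries with over 100 CPM of choroid plexus markers, or of cortical markers in a striatal library, numbered 2 and 6 in the 6-month striatum and cortex, and 7 and 19 at 12 months. In whole tissue, fewer cells of a type and less RNA per cell cannot be told apart.

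The genes lie on 6 chromosomes (GRCm38, GENCODE vM21), and the start regions of Pms1 and Pms2 are shared with genes transcribed the other way. Msh3 (ENSMUSG00000014850, chr13:92211872-92355003, minus strand) holds Gm20379 on the opposite strand over 1204 bases. Pms1 (ENSMUSG00000026098, chr1:53189187-53297018, minus strand) starts 77 bases from Ormdl1 and 93 bases from Gm28778, and holds Gm28777 on the opposite strand over 1583 bases. Pms2 (ENSMUSG00000079109, chr5:143909964-143933968, plus strand) starts 117 bases from Aimp2, and its other end overlaps Gm42421 and Rsph10b on the same strand, over 5794 and 934 bases. Gm17135, on the opposite strand, overlaps Pms2 over 11392 bases. Msh6 (ENSMUSG00000005370, chr17:87975062-87990892, plus strand) shares 34 bases with Fbxo11, and Lig1 (ENSMUSG00000056394, chr7:13277283-13311433, plus strand) shares 1439 bases with Zswim9, both on the opposite strand. Mlh3 (ENSMUSG00000021245, chr12:85234520-85270599, minus strand) and Fan1 (ENSMUSG00000033458, chr7:64346758-64374095, minus strand) have no gene starting on the other strand within 1000 bases. Whether reads were counted by strand is not given in the sources used here, so reads in the overlaps may be split between the genes.

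Promoters of all 7 members were in the RefSeq table (GRCm38.p6), each 250 bases before to 50 after a start. The 3 printed here are those of Pms1 and Pms2, each with a divergent neighbour, and of Fan1, the member that differed most between the tissues; they are on the gene's strand at chr1:53296979-53297278, chr5:143909751-143910050 and chr7:64374007-64374306. Capitals mark letters searched on both strands: GGGCGG is called the GC box, CCAAT is searched as such, and the E2F letters are TTTCCCGC, TTTCGCGC, TTTGCCGC or TTTGGCGC.
Pms1: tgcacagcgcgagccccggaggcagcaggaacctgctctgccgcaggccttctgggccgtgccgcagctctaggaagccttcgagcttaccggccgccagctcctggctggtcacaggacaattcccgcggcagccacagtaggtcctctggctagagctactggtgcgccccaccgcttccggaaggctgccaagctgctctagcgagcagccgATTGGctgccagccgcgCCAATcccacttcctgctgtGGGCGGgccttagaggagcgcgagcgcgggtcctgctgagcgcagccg
Pms2: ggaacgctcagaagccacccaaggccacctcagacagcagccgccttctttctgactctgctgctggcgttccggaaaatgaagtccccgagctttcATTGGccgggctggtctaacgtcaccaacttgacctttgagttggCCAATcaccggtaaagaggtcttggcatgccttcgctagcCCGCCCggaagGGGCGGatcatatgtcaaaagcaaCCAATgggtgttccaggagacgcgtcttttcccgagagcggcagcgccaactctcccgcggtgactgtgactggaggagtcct
Fan1: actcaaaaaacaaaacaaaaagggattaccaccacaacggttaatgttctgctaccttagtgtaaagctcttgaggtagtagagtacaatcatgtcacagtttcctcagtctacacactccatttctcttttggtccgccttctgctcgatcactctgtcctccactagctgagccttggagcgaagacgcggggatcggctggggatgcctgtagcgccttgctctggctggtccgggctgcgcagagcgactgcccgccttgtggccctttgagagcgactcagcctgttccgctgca
Pms1 held CCAAT in 2 places and 1 GC box, and Pms2 held CCAAT in 3 places and 2 GC boxes, where 37.4% of 32851 promoters held CCAAT, 35.7% a GC box and 2.26% the E2F letters. The E2F letters occurred in none of the 3 windows printed, and among the other members in those of Msh3, Msh6 and Lig1 (in 1 of the 3 starts listed for Lig1). None of the letters searched occurred in the Fan1 window. Such matches describe the sequence only.

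Levels between genes were compared per kb of the longest coding transcript. In the 6-month striatum the order was Msh3 (6.374 CPM per kb, SD 0.5191, n = 50 libraries), Mlh3 (5.815), Msh6 (3.895), Pms2 (3.547), Fan1 (3.002), Lig1 (2.446) and Pms1 (1.381), and every step between neighbours exceeded the larger SD except that from Msh6 to Pms2. In the 6-month cortex Msh3 (4.879 CPM per kb), Pms2 (4.418) and Mlh3 (4.32) led, with each step between neighbours within the spread and Msh3 above Mlh3 by more than it, and Msh6 (3.69), Lig1 (2.779), Fan1 (2.017) and Pms1 (1.197) followed in that order. Fan1 was above Lig1 in the striatum and below it in the cortex. Pms1, a MutL gene, was lowest in both tissues at this age. In the 12-month striatum Msh3 (5.972), Mlh3 (5.342) and Msh6 (3.89) again led, and Fan1 (2.875), Pms2 (2.654) and Lig1 (2.572) were not separated beyond their spread. The 12-month cortex had another order, in which Pms2 (6.651) led, followed by Mlh3 (4.265), Msh3 (2.869), Lig1 (2.471), Msh6 (1.712), Pms1 (1.129) and Fan1 (0.6699), with Msh3 and Lig1 not separated beyond their spread.

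**Figure D1:**
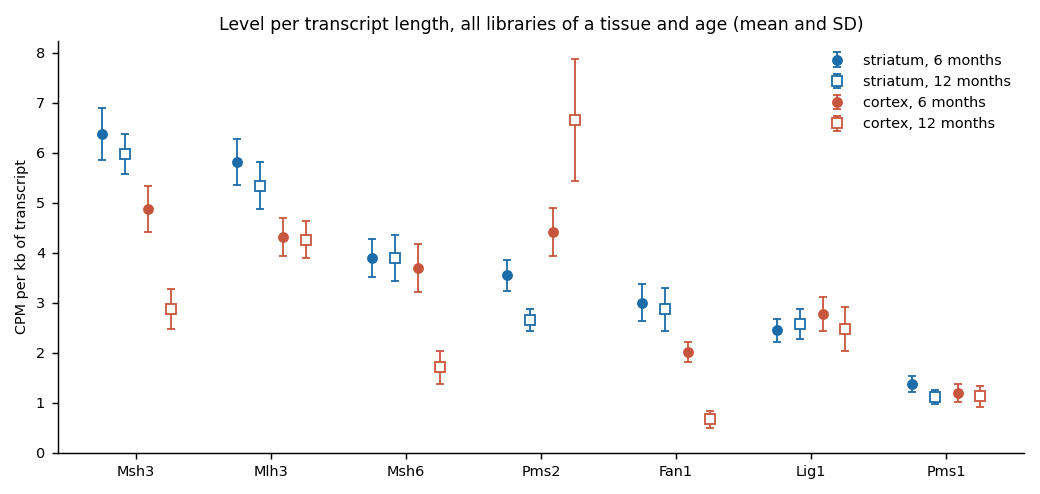
Level per kb of transcript (CPM per kb, TMM-scaled) of each of the 7 genes at both ages in either tissue as the mean, with bars of 1 SD over the libraries. Msh3 and Mlh3 lead the 6-month striatum at 6.374 and 5.815 CPM per kb, while in the 12-month cortex Pms2 is highest at 6.651 and Fan1 lowest at 0.6699.

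Ratios between genes of 1 family were taken within libraries. Per kb, Msh3 exceeded Msh6 in every library of both tissues and ages, by a ratio of 1.65 ± 0.155 (SD, n = 50) in the 6-month striatum and 1.34 ± 0.144 in the 6-month cortex. Mlh3 exceeded Pms2 in 50 of 50 libraries of the 6-month striatum (ratio 1.65 ± 0.174) and in 26 of 50 of the 6-month cortex (0.992 ± 0.161). At 12 months the Mlh3 to Pms2 ratio was 2.02 ± 0.186 in striatum (57 libraries) and 0.659 ± 0.116 in cortex (60 libraries).

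At 6 months of age Msh3, Mlh3 and Fan1 were higher in striatum than in cortex, and Pms2 was higher in cortex. These 4 of 7 members were called, where 37.8% of the 37981 genes tested were. Over all groups together, Fan1 ranged from 8.091 to 12.9 CPM in the striatum (median 10.41, n = 50) and from 5.748 to 8.243 in the cortex (median 7.02). The highest cortical library was just above the lowest striatal one, and the log2 difference was 0.57 (SE 0.028, edgeR adjusted p = 2.11e-36). Mlh3 ranged from 24.34 to 37.06 CPM in striatum (median 31.98) and from 18.63 to 29.05 in cortex (median 23.49). Its difference was 0.43 (SE 0.024, edgeR adjusted p = 6.22e-32). Msh3, the loop-recognition subunit, spanned 20.15 to 29.69 CPM in striatum (median 25.09) and 15.78 to 23.81 in cortex (median 19.41), a difference of 0.39 (SE 0.027, edgeR adjusted p = 1.16e-25). Pms2 went the other way, with 15.65 to 24.45 CPM in striatum (median 19.37) and 18.69 to 30.43 in cortex (median 23.99), a difference of -0.31 (SE 0.025, edgeR adjusted p = 9.95e-22). The ranges of Mlh3, Msh3 and Pms2 overlapped between tissues.

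The remaining 3 members passed the adjusted p in the 6-month comparison, as 50.4% of genes did, but moved by less than 20%. Pms1 was at a median of 4.175 CPM in striatum and 3.548 in cortex (log2 difference 0.21, SE 0.039, edgeR adjusted p = 1.64e-06). Lig1 was at 7.719 and 8.877 CPM (log2 difference -0.18, SE 0.033, edgeR adjusted p = 4.65e-07), and in WT mice alone it was called (-0.30, edgeR adjusted p = 0.00827). Msh6, the single-mismatch subunit, was at 16.3 and 15.57 CPM (log2 difference 0.08, SE 0.032, edgeR adjusted p = 0.0319), and in WT mice alone its sign was opposite (-0.06, edgeR adjusted p = 0.586).

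Ratios within mice gave each gene's direction animal by animal. Of the 50 mice with both tissues at 6 months, Fan1 and Mlh3 were higher in the striatum in 50, Msh3 in 49, Pms1 in 41, Msh6 in 34, Lig1 in 12 and Pms2 in 0. The log2 ratio of striatum to cortex within a mouse averaged 0.57 ± 0.17 (SD) for Fan1, 0.43 ± 0.14 for Mlh3, 0.39 ± 0.14 for Msh3 and -0.31 ± 0.14 for Pms2. With the mouse as a block in the fit, no call of the tissue comparison changed at either age.

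**Figure D2:**
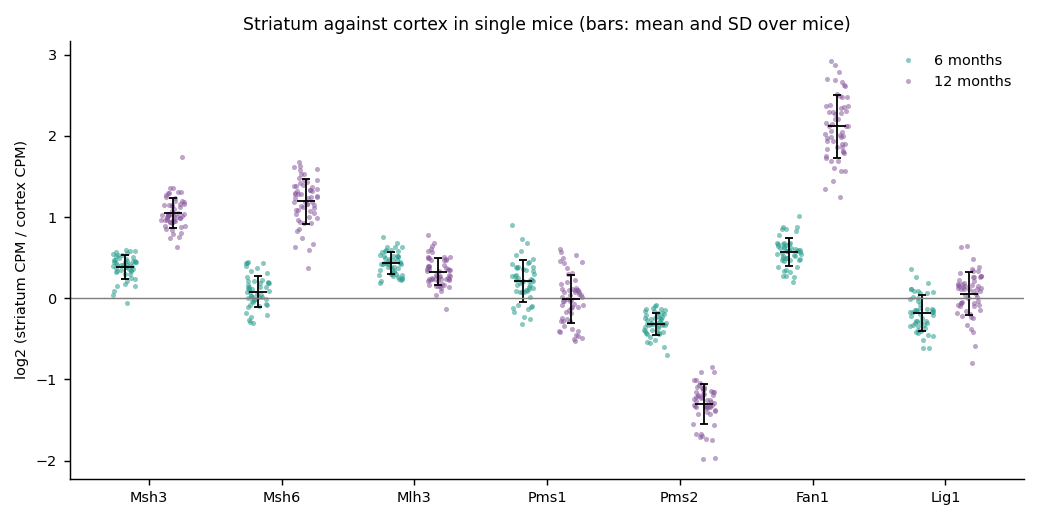
Log2 ratio of striatum to cortex (CPM) within each mouse for the 7 genes, at 6 months (50 mice) and 12 months (57 mice), with a point per mouse, bars for the mean and SD over mice, and a line at no difference. At 6 months all points of Fan1 and Mlh3 lie above the line and all of Pms2 below it.

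Each group was also taken alone. Over the 5 groups at 6 months the log2 difference of Fan1 lay between 0.48 and 0.67, that of Mlh3 between 0.34 and 0.53 and that of Msh3 between 0.32 and 0.42, and each was called in 5 of 5 groups. In these single-group comparisons 29.4% of genes were called in WT, 28.3% in WT + IPTG, 28.4% in LacQ140, 28.5% in LacQ140_A and 30% in LacQ140_2M. For Pms2 it lay between -0.37 and -0.23, past the adjusted p in all 5 groups and called in 3. Pms1 (0.10 to 0.32) was called in 2 of 5 groups, Lig1 (-0.27 to -0.08) in 1 and Msh6 (-0.03 to 0.19) in 0, with Msh6 past the adjusted p in 1. The ratio of Fan1 within a mouse was 0.67 ± 0.20 (SD, n = 10) in LacQ140, 0.63 ± 0.11 in LacQ140_2M, 0.59 ± 0.18 in LacQ140_A and 0.48 ± 0.11 in WT + IPTG mice, and that of Mlh3 was 0.53 ± 0.11, 0.52 ± 0.12, 0.41 ± 0.12 and 0.35 ± 0.10. As an interaction of tissue and genotype, LacQ140 against WT + IPTG gave 0.19 (SE 0.09, unadjusted p = 0.0344 in edgeR, adjusted p = 0.56) for Fan1 and 0.19 (SE 0.077, unadjusted p = 0.0159, adjusted p = 0.421) for Mlh3. No interaction was called among 14 tests of the members at both ages by edgeR or DESeq2 (2 at an unadjusted p under 0.05), where 0.663% of genes passed at 6 months and 2.55% at 12 months; an interaction was called on its adjusted p alone, with no fold bound.

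At 12 months the same 4 genes and Msh6 were called between the tissues, where 57.9% of 37363 genes were. Fan1 ranged from 7.089 to 13.11 CPM in striatum (median 10.04, n = 57) and from 1.021 to 3.924 in cortex (median 2.315, n = 60), with no overlap, a log2 difference of 2.10 (SE 0.052, edgeR adjusted p = 5.11e-72). Msh3 (1.06, SE 0.031), Msh6 (1.18, SE 0.041) and Mlh3 (0.33, SE 0.023) were higher in striatum, and Pms2 was lower (-1.32, SE 0.037). The Pms2 ranges were 11.95 to 17.28 CPM in striatum and 26.56 to 55.23 in cortex, also with no overlap, and those of Msh3 were 19.59 to 26.68 and 7.146 to 15.24. Lig1 (0.06, SE 0.038) and Pms1 (-0.01, SE 0.043) were not called. Set side by side at 6 and 12 months, striatal medians were 25.09 and 23.84 CPM for Msh3, 16.3 and 16.77 for Msh6, and 10.41 and 10.04 for Fan1. The cortical medians of these genes were 19.41 and 11.57, 15.57 and 7.203, and 7.02 and 2.315. Pms2 was at 19.37 and 14.76 CPM in striatum and 23.99 and 34.76 in cortex, Mlh3 at 31.98 and 29.01 and at 23.49 and 23.45, Pms1 at 4.175 and 3.383 and at 3.548 and 3.358, and Lig1 at 7.719 and 8.204 and at 8.877 and 7.521.

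Transcript length moved with the 12-month tissue difference across the genome. Over 14895 expressed genes Spearman's rho between the tissue difference and length was 0.593 at 12 months, against 0.0494 over 14903 genes at 6 months, a description across genes that share the same libraries. Genes of 3000 to 4500 nt had a median tissue difference of 0.36 at 12 months and those of 5000 to 6000 nt one of 0.84, against 0.04 and 0.02 at 6 months. Pms2, at 5482 nt, was below the median of its length at 12 months (-1.32 against 0.84), as was Mlh3, at 5463 nt (0.33). With an offset for each library's own trend on length, the 12-month difference was 1.83 for Fan1, 0.64 for Msh3, 0.66 for Msh6 and -2.21 for Pms2, all still called, where 55% of genes were. Mlh3 turned to -0.55 (SE 0.028, edgeR adjusted p = 2.57e-38), and in WT mice alone its 12-month difference was 0.19 (edgeR adjusted p = 0.014), under the fold bound. The tissue and the trend on length cannot be told apart in the 12-month libraries.

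**Figure D3:**
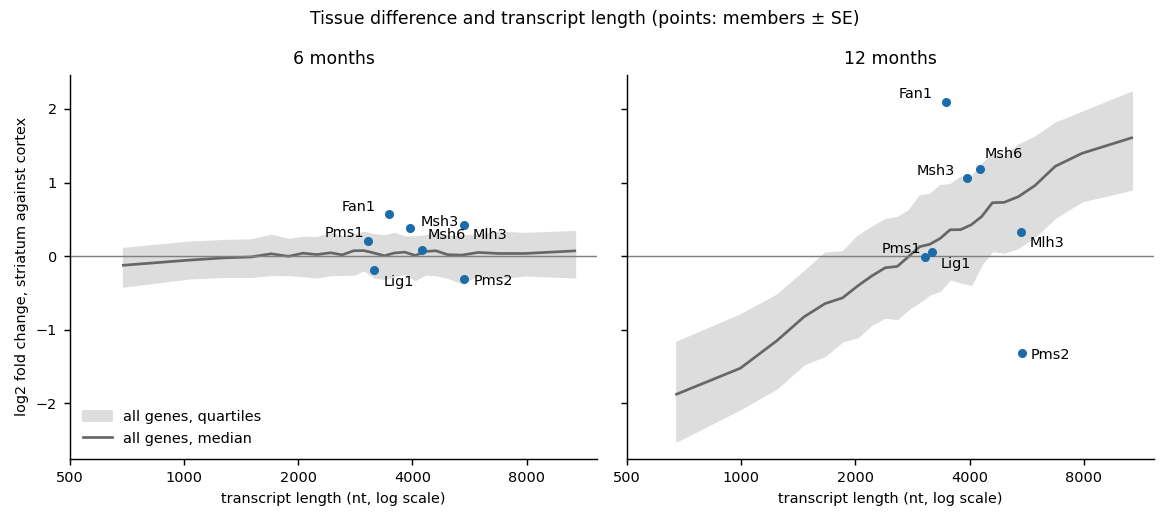
Striatum against cortex difference (log2) plotted on transcript length (nt, log axis) at 6 and 12 months; the line joins the medians of bins of expressed genes, the band spans their quartiles, and the 7 genes are named. The medians are nearly flat at 6 months and climb with length at 12 months, where Fan1 lies far above the band and Pms2 far below it.

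The same comparison was made for neighbours of the members. Aimp2, divergent from Pms2, had -0.14 at 6 months and -2.09 at 12 months, in the direction of Pms2, and Ormdl1, divergent from Pms1, had -0.15 and -2.32. With the offset for the trend on length the 12-month values were -0.91 for Aimp2 and -1.82 for Ormdl1. Rsph10b, which overlaps the end of Pms2 on its own strand, was also lower in striatum at 6 months (-0.48, edgeR adjusted p = 3.11e-14), at a level of 3.612 CPM in the cortex of WT + IPTG mice against 22.35 CPM for Pms2. Gm42421, the other gene on that strand, was at 0.1592 CPM there. How far reads of Rsph10b enter the count of Pms2 was not tested.

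Of 33 other repair genes listed with the members (partners of the MutS and MutL proteins, excision and resynthesis factors, Fanconi anaemia and base excision repair genes and other modifiers of HD onset), 11 were higher in striatum and 4 higher in cortex at 6 months, and 18 were not called (45.5% of the list called, against 37.8% of all genes); the list's median was 0.121 against 0.021 over expressed genes. Named by smallest p, Fancd2, whose protein brings FAN1 to crosslinked DNA, was lower in striatum (-1.02, SE 0.037), and Rpa2 (0.69) and Rpa1 (0.30), which coat single-stranded DNA, Lig3 (0.64), a ligase of base excision repair, Apex1 (0.33), its endonuclease, and Pold2 (0.44), a subunit of DNA polymerase delta, were higher. At 12 months 13 were higher and 16 lower in striatum, where 57.9% of all genes were called, and with the offset for the trend on length 10 were higher and 15 lower, where 55% were. At both ages the share of all genes takes in every gene with at least 1 count, many of them under 1 CPM. The list was not compared with genes of like level.

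The comparison of LacQ140 with WT + IPTG mice asked whether expressing mHtt moved the repair genes. In the 6-month striatum Fan1 was called and was higher in LacQ140, where 7.93% of 35808 genes were called. WT + IPTG mice spanned 8.091 to 9.74 CPM of Fan1 (median 8.98) and LacQ140 mice 9.301 to 12.9 (median 11.37), with 9 of 10 LacQ140 mice above every WT + IPTG mouse. The log2 difference was 0.34 (SE 0.067, edgeR adjusted p = 0.000212), and it was called in 20 of 20 refits that left out 1 library (0.31 to 0.36). WT mice without IPTG lay between, at 8.28 to 12.78 CPM (median 9.719), and with both WT groups as the control the difference was 0.26 (edgeR adjusted p = 0.000622), just under the fold bound. The 6 other members had positive differences and were not called, from 0.04 for Pms1 and Lig1 to 0.14 for Mlh3 and 0.15 for Pms2 (edgeR adjusted p = 0.076 and 0.07), and the median of the 7 was 0.08, against -0.005 over expressed genes.

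In the 6-month cortex Pms2, a MutL endonuclease, was called and was higher in LacQ140, where 0.881% of 35987 genes were called. WT + IPTG mice spanned 19.31 to 25.19 CPM (median 22.28) and LacQ140 mice 24.04 to 30.43 (median 27.5), with 9 of 10 above every WT + IPTG mouse. The difference was 0.27 (SE 0.061, edgeR adjusted p = 0.0114), and 0.27 (adjusted p = 0.002) with both WT groups as the control. It was called in 18 of 20 refits without 1 library and lost its call, just under the fold bound, without LacQ140 replicate F1 (0.25, edgeR adjusted p = 0.0375) and without WT + IPTG replicate M1 (0.255, edgeR adjusted p = 0.0328). Without the 6 libraries that held choroid plexus markers it was 0.23 (edgeR adjusted p = 0.0848). Rsph10b, which overlaps it, was at 2.439 to 4.465 CPM in WT + IPTG and 3.526 to 5.567 in LacQ140 cortex (0.29, SE 0.121, edgeR adjusted p = 0.327). In the same mice the summed markers in cortex had medians of 1125 against 1286 CPM for astrocytes, 160.6 against 184 for endothelium, 205.5 against 219.9 for microglia, 5884 against 6596 for oligodendrocytes and 29.09 against 24.95 for newborn neurons (LacQ140 against WT + IPTG), all with overlapping ranges, and their part in the difference of Pms2 was not tested. Fan1 (0.13), Msh3 (0.06) and Pms1 (0.06) were positive, and Mlh3 (-0.06), Msh6 (-0.05) and Lig1 (-0.02) negative, none of them called.

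**Figure D4:**
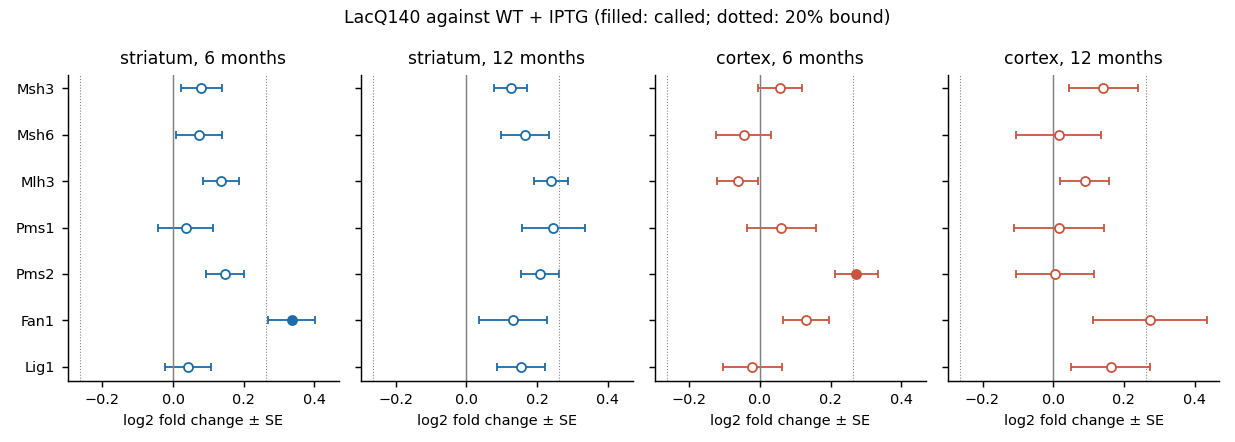
Log2 difference of LacQ140 against WT + IPTG for the 7 genes, by tissue and age, points with bars of 1 SE (filled where called), with dotted lines at a change of 20%. In striatum all 14 points lie above 0, and only Fan1 at 6 months passes the bound and the adjusted p, while in cortex only Pms2 at 6 months does.

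In the 12-month striatum all 7 members were again positive in LacQ140, from 0.13 for Msh3 to 0.25 for Pms1, and none was called, where 9.44% of genes were. Mlh3 had the smallest p: WT + IPTG mice spanned 22.79 to 29.21 CPM (median 27.64, n = 10) and LacQ140 mice 28.25 to 32.75 (median 32.08, n = 9), with 8 of 9 above every WT + IPTG mouse. Its difference of 0.24 (SE 0.048, edgeR adjusted p = 0.000127) was under the fold bound. Pms2 (0.21, SE 0.054, edgeR adjusted p = 0.00391) and Pms1 (0.25, SE 0.088, edgeR adjusted p = 0.0477) also passed the adjusted p alone, as did 14% of all genes tested. Mlh3 and Pms2 kept that in 19 of 19 refits without 1 library and Pms1 in 6 of 19. With both WT groups as the control, Mlh3 was 0.20 (adjusted p = 0.000173 in edgeR), Msh6 0.21 (0.0055), Lig1 0.20 (0.00909), Pms2 0.13 (0.051) and Pms1 0.17 (0.136). The median over the 7 was 0.166, against 0.006 over expressed genes.

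In the 12-month cortex no member was called by edgeR or DESeq2, with 0 of 7 at an unadjusted p under 0.05, where 0.0899% of genes were called. Differences ran from 0.01 for Pms2 to 0.27 for Fan1 (SE 0.162, edgeR adjusted p = 0.651). Fan1 spanned 1.021 to 2.491 CPM in WT + IPTG and 1.739 to 3.235 in LacQ140 mice there, so the 2 groups overlapped.

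Marker levels of striatal cell types also moved with genotype. Over the 7 spiny neuron markers, the summed level at 6 months was 3539 to 4766 CPM in LacQ140 (median 4264) and 4358 to 6449 in WT + IPTG (median 5317), and at 12 months 3187 to 4004 against 5321 to 7374. Over 4 markers of newborn neurons the sums were 30.24 to 41.19 CPM in LacQ140 and 19.36 to 30.82 in WT + IPTG at 6 months, and at 12 months 25.39 to 37.07 against 18.06 to 23.06, without overlap. Oligodendrocyte and astrocyte markers were lower in LacQ140 without overlap at 6 months, with sums of 8905 to 11140 CPM against 11630 to 15080 over 4 oligodendrocyte markers and 804.4 to 935.7 against 944.7 to 1218 over 4 astrocyte markers. Medians at 6 months were also lower for 4 microglial markers (218.3 against 251 CPM) and 3 endothelial markers (123.7 against 148.1), with overlapping ranges, while 2 markers of oligodendrocyte precursors were at 78.84 against 78.18 CPM. At 12 months the oligodendrocyte, astrocyte, microglial and endothelial sums were again lower by their medians, with overlapping ranges. None of these markers had a median of 0, and their part in the differences of the repair genes was not tested. Htt itself, whose expanded allele IPTG releases, was at 91.67 to 127.5 CPM in WT + IPTG and 86.03 to 114 in LacQ140 striatum at 6 months, and at 71.35 to 100 in LacQ140_A.

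Lowering mHtt was compared with its full expression in the next set of tests, all of which share the LacQ140 mice. At sampling the lowering groups were without IPTG and LacQ140 mice had it, so lowering and lack of IPTG cannot be told apart here. No member was called in 70 tests of LacQ140_A, LacQ140_2M or LacQ140_8M against LacQ140, by edgeR or DESeq2, and 10 had an unadjusted p under 0.05, 7 in striatum and 3 in cortex. Of all genes, 1.88% were called for LacQ140_A in the 6-month striatum and 1.26% for LacQ140_2M, 0.91%, 0.608% and 0.00565% for LacQ140_A, LacQ140_2M and LacQ140_8M in the 12-month striatum, and in the cortex 0.00834% and 0% for LacQ140_A and LacQ140_2M at 6 months and 0.0435%, 0.0841% and 0% for LacQ140_A, LacQ140_2M and LacQ140_8M at 12 months. In the 12-month striatum Mlh3 spanned 23.45 to 30.54 CPM in LacQ140_A (median 27.76), 26.65 to 33.67 in LacQ140_2M (median 30.27) and 27.76 to 34.29 in LacQ140_8M (median 31.72), beside 32.08 as the median of LacQ140. For LacQ140_A this was -0.18 (SE 0.048, edgeR adjusted p = 0.0397), under the fold bound, where 1.25% of genes passed the adjusted p alone, and past it in 5 of 19 refits without 1 library. LacQ140_2M was at -0.06 and LacQ140_8M at -0.002, and whether the 3 lowering groups differ from each other was not tested.

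For Fan1 in the 6-month striatum, LacQ140_A mice spanned 9.678 to 12.32 CPM (median 11.34) and LacQ140_2M mice 9.054 to 11.46 (median 10.43), beside a LacQ140 median of 11.37, with differences of -0.003 (SE 0.066) and -0.08 (SE 0.066). WT mice, like both lowering groups without IPTG at sampling, spanned 8.28 to 12.78 CPM of Fan1 (median 9.719). Neither lowering group was tested against WT. Pms2 in the 6-month striatum was 16.78 to 21.31 CPM in LacQ140_A (median 18.36) and 17.56 to 21.09 in LacQ140_2M (median 19.12), beside 18.53 to 24.45 in LacQ140 (median 20.72); the difference for LacQ140_A was -0.18 (SE 0.055, edgeR adjusted p = 0.0683). In the 6-month cortex, where Pms2 had been called, it was at a median of 24.09 CPM in LacQ140_A and 24.28 in LacQ140_2M, with differences of -0.18 (SE 0.061, edgeR adjusted p = 0.364) and -0.13 (SE 0.061, edgeR adjusted p = 0.469) from LacQ140. Over all 35 striatal tests 25 were negative and 10 positive, and over 35 cortical tests 14 were negative and 21 positive.

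**Figure D5:**
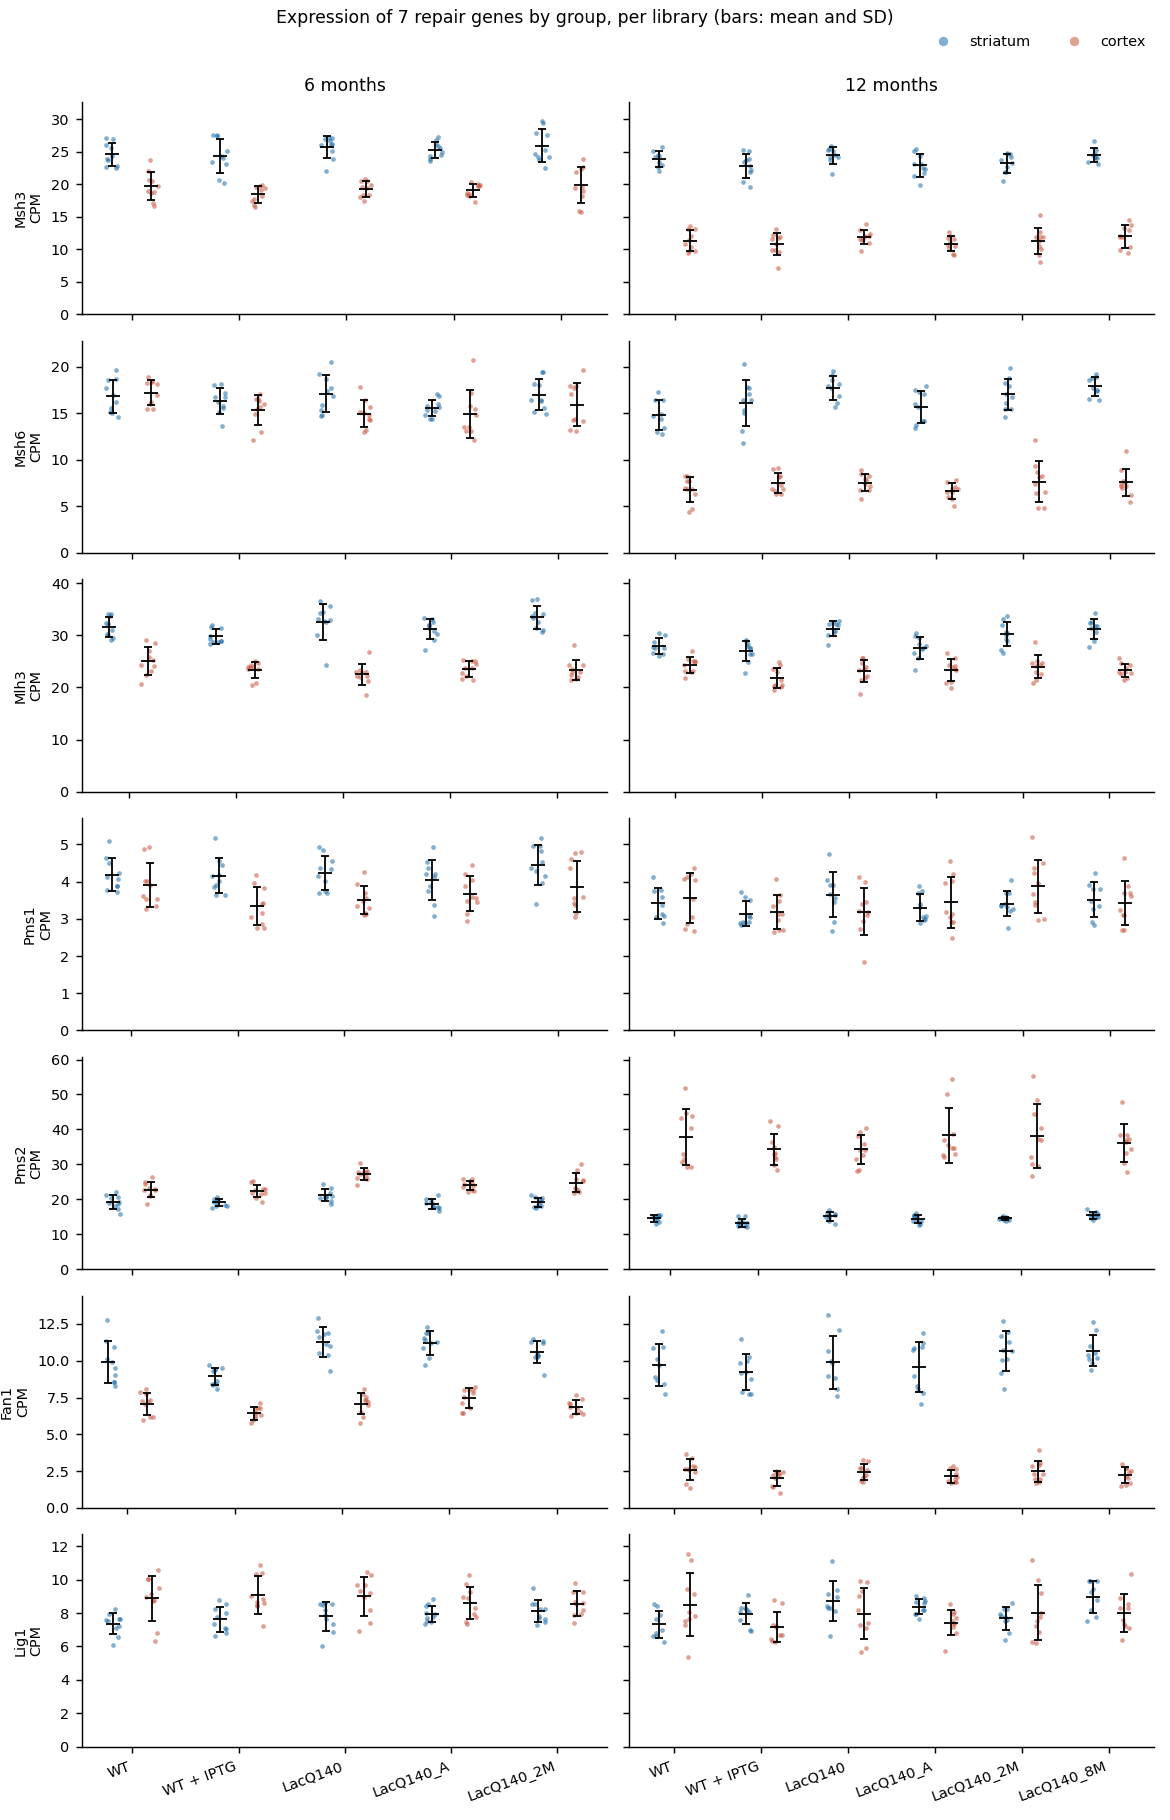
Level (CPM, TMM-scaled) of the 7 genes in each group by age, coloured by tissue, a point per mouse and bars for the group mean and SD. Fan1 in the 6-month striatum has a median of 9.719 in WT without IPTG and 8.98 in WT + IPTG. Its medians are 11.37, 11.34 and 10.43 in LacQ140, LacQ140_A and LacQ140_2M.

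For IPTG by itself no member was called in 28 tests of WT + IPTG against WT, by edgeR or DESeq2, and 7 had an unadjusted p under 0.05, where 0.584% of genes were called in the 6-month striatum and 0.609% in the 6-month cortex, and 0.218% and 0% at 12 months. Of the 28 differences 23 were negative. For Fan1 at 6 months it was -0.15 (SE 0.067, edgeR adjusted p = 0.485) in striatum and -0.13 (SE 0.065, edgeR adjusted p = 0.419) in cortex, and the largest of all was -0.38 (SE 0.161, edgeR adjusted p = 0.717) for Fan1 in the 12-month cortex. Between males and females no member was called in 28 tests, by edgeR or DESeq2, with 7 at an unadjusted p under 0.05 and log2 differences between -0.11 and 0.16, where 0.279% and 0.192% of genes were called in the 6-month striatum and cortex and 0.218% and 0.154% at 12 months.

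Among the 33 other repair genes, LacQ140 striatum at 6 months had 4 higher and 1 lower than WT + IPTG (15.2% of the list, against 7.93% of all genes), and at 12 months 4 higher and 2 lower (18.2% against 9.44%). The shares of all genes take in every gene with at least 1 count, many of them under 1 CPM. The list was not compared with genes of like level, so an excess cannot be read from these shares. Exo1, the exonuclease that removes the mismatched strand, was at 0.2443 to 0.444 CPM in WT + IPTG and 0.5992 to 1.374 in LacQ140 mice at 6 months, without overlap (1.22, SE 0.182, edgeR adjusted p = 1.27e-06), and was again higher at 12 months (0.91, SE 0.221, edgeR adjusted p = 0.00171). Its level in 6-month WT mice without IPTG was 0.3191 to 0.9083 CPM, which overlaps both. Rfc3, a subunit of the clamp loader, was higher at both ages (0.36 and 0.41). Rpa2 was higher (0.31) and Polb, the polymerase of base excision repair, lower (-0.32) at 6 months, while Rrm2b, a subunit of ribonucleotide reductase, was higher (0.28) and Rfc5 (-0.42) and Fancd2 (-0.39) lower at 12 months. In the 6-month cortex Rfc3 was higher (0.40), as 1 of 33 called where 0.881% of all genes were, and no gene of the list was called in the 12-month cortex. Of the lowering groups, LacQ140_A at 6 months had Exo1 lower than LacQ140 in striatum (-0.59, SE 0.170, edgeR adjusted p = 0.0427).

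Co-variation within groups was described without a test. Pearson's r of log2 CPM after centring on group means, averaged over the 4 sets of a tissue and age, was 0.486 for Msh3 with Msh6 and 0.287 for Mlh3 with Pms1, the highest of the 21 pairs, and -0.376 for Msh6 with Pms2, the lowest. Of 13702 genes, the closest to 6 members by this measure were Ddx42 for Msh3 (0.693), Camsap1 for Msh6 (0.796), Pds5b for Mlh3 (0.633), Mier1 for Pms1 (0.486), Trub2 for Pms2 (0.714) and Ndst1 for Fan1 (0.614). Each r rests on 50 to 60 libraries that also share depth and the trend on length, whose slope correlated with Msh6 at 0.50 to 0.73 and with Pms2 at -0.82 to 0.09 over the 4 sets.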

How the data were processed

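RNA-Seq with paired 100-base reads (Illumina NovaSeq) was made from total RNA of striatum and cortex. The authors deposited expected counts per gene, not normalized, in 1 table per age, on GRCm38 per the labels. The aligner, the quantifier and its annotation are not given in the sources used here. The expected counts were rounded to whole numbers. Genes with at least 1 count were fitted in edgeR 4.0.16 (R 4.3.3) with TMM factors and the quasi-likelihood test, over all groups of a tissue and age, or over both tissues of an age for the tissue comparison. The SE is the log2 difference divided by the square root of F. Figures used Python 3.11.15. Total counts per library, 33292057 to 68038831, limit the precision of low genes such as Exo1. Fits were tested on simulated data.

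The 7 members were named in every comparison. Of the pathway lists at most 6 called genes with the smallest p were named per main comparison, with each member's divergent neighbours and closest gene. Some genes of these lists are not reported here. Genes overlapping Pms2 and Htt were added after values were seen. The members and lists were chosen with earlier results of these data known.

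Alternatives were DESeq2 1.42.0, its size factors, a low-count filter, sex or replicate as a term, the 2 groups alone, no fold bound, a length-trend offset, pooled WT groups, WT mice alone, and each library left out in some comparisons. The last was done for LacQ140 against WT + IPTG in the 6-month cortex and in striatum at both ages. It was also done for LacQ140_A against LacQ140 in the 12-month striatum, and for no other comparison. Leaving out libraries with markers of another tissue, and leaving out each library of the 12-month striatum, were chosen after seeing the data. Striatum and cortex of 1 mouse were paired by the mouse number given with each library: within-group deviations correlated at a mean of 0.265 for the same mouse and 0.142 for others at 6 months, and 0.200 and 0.118 at 12 months. Of 963 pairs of libraries of 1 group, none agreed within sampling noise (lowest chi-square per degree of freedom 6.5).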

Additional observations from a re-analysis of the deposited data

Results flagged for a closer look

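In 3 of 154 sets of a gene, group, tissue and age, 1 library lay far from the rest by Dixon's test, where chance gives about 1 in 20. Mlh3 was at 28.11 CPM in LacQ140_2M replicate F4 in the 6-month cortex, where the others were at 21.45 to 24.41. Msh3 was at 21.48 CPM in LacQ140 replicate F3 in the 12-month striatum, where the others were at 23.75 to 25.83. Fan1 was at 9.054 CPM in LacQ140_2M replicate M1 in the 6-month striatum, where the others were at 10.27 to 11.46.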

How the results depend on the processing

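Over the alternatives, 2100 differences of the 7 genes in 26 comparisons were recomputed: 2082 kept their side of the limits where they were called, 5 lost the call, 12 gained it and 1 reversed. The reversal was Mlh3 between the tissues at 12 months with the length-trend offset, at -0.547. Sign changes in 61 uncalled values had a main size of at most 0.177. Counts of called members were 0 in place of 1 for LacQ140 against WT + IPTG in the 6-month striatum with pooled WT groups and in the 6-month cortex without the libraries holding markers of another tissue. Without the fold bound they were 3 in place of 0 in the 12-month striatum, 1 in place of 0 for LacQ140_A against LacQ140 there, and 7 in place of 4 between the tissues at 6 months. Leaving out 1 library gave 0 to 1 in the 6-month cortex and 0 to 1 in the 12-month striatum, where Pms1 was called without LacQ140 replicates M1 (0.282) or F3 (0.293), or without WT + IPTG replicates M2 (0.277) or F2 (0.266). The cause was not tested. The fit with the replicate label as a block changed no call of a member. Libraries of different groups shared only the label: their deviations correlated at a mean of 0.106 to 0.133, with lowest values of -0.641 to -0.286, and 6 of 50, 3 of 57, 7 of 50 and 15 of 60 libraries were closest to their own label. Depth limits the precision of genes at a few CPM or less, such as Exo1, Pms1 and, in the 12-month cortex, Fan1.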
